A study of Homo sapiens with 8 samples.

Results

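The culture described here was 1 well of HepaRG cells given 300 µM tert-butylhydroquinone (tBHQ) for 24 h, profiled with Parse Evercode combinatorial-barcoding single-cell RNA sequencing. Its cells were chosen by the sample name in the deposited cell table (run 4, tBHQ, 300 µM) and kept if they held at least 500 genes and had at most 20% of their unique molecular identifiers (UMIs) on genes of the mitochondrial genome. Of 125 cells under that name 56 were kept, out of 12976 cells in the series. The controls were the DMSO cultures of runs 3, 4, 5 and 6, with 250, 127, 311 and 93 kept cells, and the lower doses of run 4 were 3 µM with 125 kept cells and 30 µM with 52. Each DMSO and tBHQ culture compared here had been grown for 7 days before exposure and carried 0.1% DMSO. HepaRG is an established human liver progenitor line, and the terminally differentiated cells used here form hepatocyte-like and cholangiocyte-like cells. The 8 deposited samples are sublibraries of the same pooled cells, so the cultures and not the samples were compared. There was 1 treated well per dose in run 4, and no source used here says what a run number stands for, so p-values measure the spread between these wells, which may be technical.

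tBHQ is oxidised in cells to a quinone and is widely used to switch on NRF2, a transcription factor encoded by NFE2L2. In resting cells KEAP1 holds NRF2 for ubiquitination by a CUL3 ligase. When the quinone modifies cysteines of KEAP1, NRF2 accumulates, pairs with small MAF proteins and binds antioxidant response elements near genes for glutathione synthesis, thioredoxin reduction, quinone and aldehyde reduction, heme breakdown and conjugation. BACH1 occupies the same elements as a repressor. The comparison asks whether these genes, and other stress and liver genes, differed from vehicle at the highest dose.

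The short core of the element, TGACNNNGC on either strand, was searched in RefSeq promoters of GRCh38.p14, from 250 bases before to 50 bases after each start site. It was present in 4687 of 35116 promoters (13.35%). Of the 16 genes named for this response, 13 had a promoter entry, and the core was present in those of 3 (GCLM, TXNRD1 and SPANXB1). These windows are shown because they carry the letters through which NRF2 is known to act, with the 9 bases of the core in capitals and 10 bases on each side, read along the strand of the gene. SLC30A1 was added after its values were seen, and its last capitals overlap a match to the xenobiotic response element core GCGTG on the other strand.
GCLM, chr1:93909446-93909474, minus strand: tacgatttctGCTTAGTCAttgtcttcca
TXNRD1, chr12:104286920-104286948, plus strand: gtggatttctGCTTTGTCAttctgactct
TXNRD1, chr12:104215670-104215698, plus strand: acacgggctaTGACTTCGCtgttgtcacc
TXNRD1, chr12:104215761-104215789, plus strand: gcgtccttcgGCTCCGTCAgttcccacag
SPANXB1, chrX:141002576-141002604, plus strand: gtgtggctttGCCTTGTCAccaggagggt
SLC30A1, chr1:211579231-211579259, minus strand: gggcggcaagGCCTTGTCAcgctcgggtc
A match to 9 letters is a description of the sequence and not a binding site. The known elements of many NRF2 targets lie farther from the start site than this window.

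A larger share of cells was rich in mitochondrial UMIs in the treated culture than in any control. Before the limit was applied, 69 of its 125 cells (55.2%, exact binomial 95% interval 46.0 to 64.1%) were above 20% mitochondrial UMIs, against 19.9%, 0.781%, 20.9% and 4.12% of the DMSO cells in runs 3 to 6. At 3 µM 38.7% of cells were above the limit and at 30 µM 24.6%, so the share did not follow the dose. The other 14 cultures of run 4 with at least 30 kept cells ranged from 0.781% to 56.8%, with a median of 8.84%. The DMSO culture of run 4 stood apart from the other controls, with a median of 2.47% mitochondrial UMIs per cell against 12.6 to 16.1%. A second 300 µM culture, in run 1, had 26 cells, of which 22 (84.6%) were above the limit, so it entered only as all its cells together and in no main comparison. Kept cells of the 300 µM culture held a median of 50233.5 UMIs and 8546 genes, within the DMSO medians of 17080 to 79381 UMIs and 5449 to 10812 genes. Summed over cells, the culture gave 3278258 UMIs and the DMSO cultures 3417334 to 33404488. Of the cell barcodes, 822 occurred in more than 1 sublibrary, each within 1 culture, and 3 of the 56 kept cells had such a barcode.

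**Figure D1:**
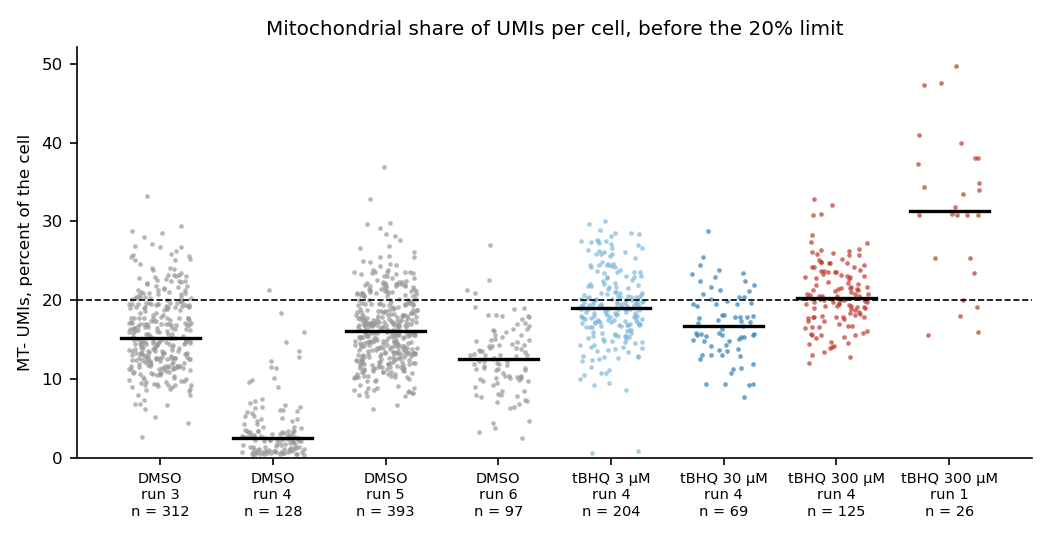
Each point is 1 cell, the vertical axis is the percent of its UMIs on mitochondrial genes, black bars are medians and the dashed line is the 20% limit. The 300 µM culture of run 4 has its median at 20.2%, next to the limit, and the DMSO culture of run 4 at 2.47%.

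No gene passed the test between 300 µM tBHQ and DMSO. UMIs were summed per culture, scaled to CPM (a gene's share of the UMIs of its culture, in parts per 1000000) and tested with edgeR's quasi-likelihood test, in which the spread came from the 4 DMSO cultures and the single treated culture was assumed to vary like them. Of 17954 genes tested, 0 were higher and 0 lower at a Benjamini-Hochberg adjusted p of 0.05 (0% in each direction), and the lowest adjusted p was 0.0939. At an unadjusted p of 0.05, 192 genes (1.07%) were higher and 592 (3.3%) lower. DESeq2 on the same counts called 4 genes higher (0.0223%: CXCL10, C9, LRRTM4 and ENSG00000281566) and 1 lower (0.00557%: XACT), and each of the 4 higher genes had over 50% of its UMIs at 300 µM in 1 cell. Without the filter on low counts edgeR called 28 of 38266 genes higher and 114 lower. As a description without a model, 14.1% of tested genes lay above every DMSO culture at 300 µM and 28.6% below every one. These shares are the background for the counts below. The median log2 fold change over all tested genes was −0.11, and −0.04 with TMM scaling.

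At 300 µM most genes of the NRF2 pathway lay inside the range of the vehicle cultures, and none passed the test. The 7 lists on this pathway together held 75 genes, of which 68 were tested, 0 passed and 50 lay within the range of the DMSO cultures. Above every DMSO culture lay 8 of the 68 and below every one 10, against 14.1% and 28.6% of all tested genes. Their median log2 fold change was −0.04, next to −0.11 for all tested genes. Summed over the lists the level was 8803 CPM at 300 µM, 9144 at 30 µM and 8687 at 3 µM, inside the DMSO range of 8380 to 9890 CPM.

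Among the regulators, NFE2L2 itself (chr2:177218667-177392756) was at 339, 433, 278 and 333 CPM in the DMSO cultures of runs 3 to 6 and at 327, 271 and 395 CPM at 3, 30 and 300 µM. The treated value lay inside the control range, with a log2 fold change of 0.19 (95% interval −0.42 to 0.81). KEAP1, its inhibitor, was at 18.0 CPM at 300 µM against 14.1 to 20.8 CPM in DMSO. SQSTM1, an autophagy receptor that binds KEAP1 and is itself a target, was at 360 CPM against 301 to 414 CPM. MAFF, a small MAF partner, was at 49.1 CPM, just above the highest DMSO value of 48.2 CPM, and higher still at 3 µM with 73.4 CPM.

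Glutathione synthesis begins with glutamate-cysteine ligase, whose catalytic subunit is GCLC and whose modifier subunit is GCLM. GCLC (chr6:53497341-53616970) was at 286, 357, 328 and 398 CPM in DMSO and at 294, 360 and 365 CPM with rising dose, a log2 fold change of 0.10 at 300 µM (interval −0.48 to 0.67). GCLM (chr1:93885199-93909456), the gene with the first element printed above, was at 173, 129, 122 and 173 CPM in DMSO and at 107, 165 and 135 CPM. Neither subunit left the control range at 300 µM. SLC7A11, which imports the cystine used for glutathione, was at 82.4, 67.3, 52.96 and 46.1 CPM in DMSO and 54.0 CPM at 300 µM. TXNRD1 (chr12:104215779-104350307), thioredoxin reductase and the carrier of 3 of the cores above, was at 686, 841, 700 and 926 CPM in DMSO and at 726, 618 and 827 CPM with rising dose. Its log2 fold change at 300 µM was 0.07 with an interval from −0.56 to 0.70. Of the 11 tested genes of the glutathione and thioredoxin list, 8 lay within the DMSO range. GLRX, which removes glutathione from proteins, lay below it with 26.8 CPM against 39.8 to 52.1 CPM (unadjusted p = 0.021 in edgeR, adjusted p = 1.00), and PRDX6, a peroxiredoxin, with 145 CPM against 166 to 188 CPM.

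The aldo-keto reductases reduce aldehydes, ketones and quinones and were named by the study for this compound. AKR1C1 (chr10:4963253-4983283) was at 432, 348, 357 and 348 CPM in the DMSO cultures and at 317, 335 and 349 CPM at 3, 30 and 300 µM. The control of run 3 was the high one, and the treated culture sat with the other controls. Its log2 fold change was −0.09 with an interval from −0.65 to 0.47. When scaled to total UMIs, a rise to 1.38-fold or more was thus outside the interval. With mitochondrial genes left out of the totals the estimate was 0.007, and this limit does not carry over to that scaling. Against the DMSO culture of the same run alone, the ratio was 1.00 for AKR1C1 (exact 95% counting interval 0.924 to 1.09), 1.02 for GCLC (0.944 to 1.11) and 0.983 for TXNRD1 (0.932 to 1.04). Set against that culture, low in mitochondrial UMIs, it was 1.37 for AKR1C2 (1.24 to 1.51), 1.19 for AKR1C3 (1.02 to 1.40), 1.97 for SPANXB1 (1.48 to 2.65), 1.80 for UGDH (1.61 to 2.00) and 0.912 for NFE2L2 (0.846 to 0.983), intervals that leave out 1 but cover counting error only. Mitochondrial genes held 17.4% of the summed UMIs at 300 µM and 3.57% of those in the run 4 DMSO culture. All these ratios are of shares of total UMIs, so this difference lowers each of them, also those near 1 and that of NFE2L2. AKR1C2 was at 267 CPM against 195 to 317 CPM and AKR1C3 at 104 CPM against 87.2 to 132 CPM. These genes are near-identical paralogs and the pipeline may have split or dropped shared reads, so the separate levels are uncertain. AKR1B10 was at 151 CPM at 300 µM, under the lowest DMSO value of 153 CPM, and at 242 CPM at 3 µM, above the highest of 197 CPM. PTGR1, a prostaglandin and aldehyde reductase, was at 513 CPM against 491 to 641 CPM. In run 1 the 300 µM cells held 203 CPM of AKR1C1 and 403 CPM of TXNRD1, below every DMSO culture of runs 3 to 6, as were 56.9% of the genes with at least 50 UMIs in each of these.

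NQO1 and HMOX1, the quinone reductase and heme oxygenase most often used to read out NRF2, were scarce in every culture. NQO1 was at 4.38, 6.15, 5.48 and 7.26 CPM in DMSO and at 5.19 CPM at 300 µM, from 17 UMIs. HMOX1 was at 4.86, 7.02, 8.77 and 7.06 CPM in DMSO and at 5.49 CPM at 300 µM, from 18 UMIs. Both treated values lay inside the control range, with intervals of the log2 fold change from −1.19 to 0.92 and from −1.41 to 0.73, so neither a fall nor a moderate rise could be told from no change at this depth. SRXN1, sulfiredoxin, had 3 UMIs at 300 µM and was not tested. Of the 2 histone genes the study named for tBHQ, H3C15 had 0 UMIs in every DMSO and tBHQ culture and H4C15 6 UMIs at 300 µM. Among the other genes it named, ARL6IP1, an endoplasmic reticulum membrane-shaping protein, was at 96.7 CPM against 87.2 to 175 CPM. SPANXB1, a cancer-testis gene with a core in its promoter, was at 42.7 CPM against 21.7 to 46.3 CPM.

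**Figure D2:**
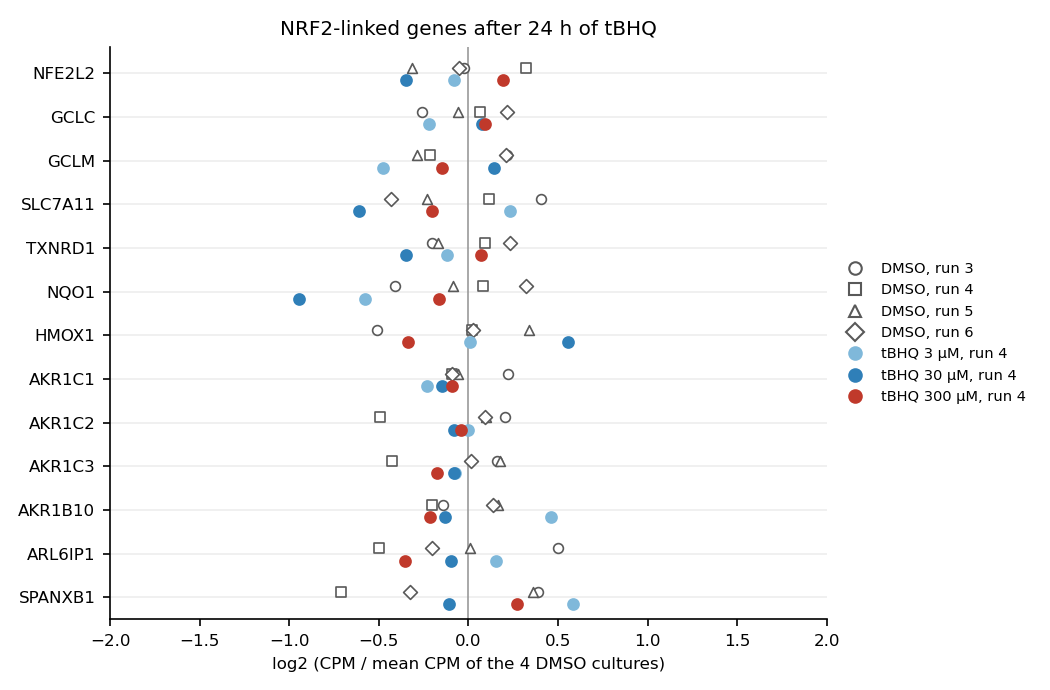
Each row is a gene and the horizontal axis is the log2 of its CPM over the mean CPM of the 4 DMSO cultures (open symbols, 1 per run), with tBHQ at 3, 30 and 300 µM as filled circles. At 300 µM every plotted gene except AKR1B10 lies within its DMSO range, for example AKR1C1 at 349 CPM between 348 and 432 CPM.

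In the remaining NRF2 lists most genes again lay within the control range. Of 8 tested genes for heme and iron handling, 1 lay above and 1 below the DMSO range at 300 µM. The 1 above was SLC48A1, a heme transporter. It lay above the range in all doses, with 17.6, 19.6 and 13.7 CPM at 3, 30 and 300 µM against 6.44 to 12.3 CPM. Without the mitochondrial limit SLC48A1 was at 10.1 CPM at 300 µM against 6.40 to 12.2 CPM, inside the range, and its log2 fold change turned from 0.46 to −0.03. For NADPH supply, 1 of 5 tested genes lay above and 1 below the range at 300 µM. The 1 above was PGD, a pentose phosphate dehydrogenase. It lay above the range in all doses too, with 56.2, 59.2 and 48.5 CPM against 31.8 to 45.5 CPM. In both genes the value at 300 µM was the lowest of the 3 doses. Of 14 tested conjugation and efflux genes, 1 lay above and 4 below the range, among them the transporter ABCC3 with 632 CPM against 652 to 888 CPM. UGT1A6, a glucuronosyltransferase that shares its last exons with other UGT1A genes, was at 454 CPM against 427 to 498 CPM. Among the other targets, UGDH, which makes the sugar donor for glucuronidation, was at 273 CPM against 152 to 249 CPM. TXNIP, the inhibitor of thioredoxin, was at 51.6 CPM against 25.2 to 38.9 CPM, with an unadjusted p of 0.025 and an adjusted p of 1.00 in edgeR. GLRX and TXNIP were the only members of the 7 lists with an unadjusted p under 0.05, 1 in each direction.

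A measure adapted from the study's share of responding cells was also taken, as a description with no test. Cells were thinned to 5000 UMIs each, and the share above 2 times the mean of the run 4 DMSO cells was counted. For AKR1C1 9 of 56 cells (16.1%, interval 7.62 to 28.3%) exceeded it at 300 µM, 7.69% at 30 µM and 11.2% at 3 µM, against 13.4 to 24.8% in the DMSO cultures. For TXNRD1 5 cells did (8.93%, interval 2.96 to 19.6%), against 8.00 to 21.5% in DMSO. For GCLC it was 14.3% against 11.9 to 18.3%. All 3 shares at 300 µM lay inside the DMSO range, and the intervals cover counting error within 1 culture only.

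SLC30A1, the zinc exporter that metal-responsive transcription factor 1 controls, lay above every control at all doses. It was singled out after its values were seen, as the 1 member of the metallothionein and zinc list above the DMSO range. SLC30A1 (chr1:211571568-211579161) was at 25.1, 19.9, 24.1 and 22.8 CPM in DMSO and at 50.6, 37.4 and 40.9 CPM at 3, 30 and 300 µM. The 3 treated cultures did not overlap the controls, and the order of the doses was not that of the levels. The log2 fold change at 300 µM was 0.82 (SE 0.25, unadjusted p = 0.0088, adjusted p = 1.00 in edgeR). After thinning, 17.9% of cells at 300 µM held a UMI of SLC30A1 (interval 8.91 to 30.4%), 13.5% at 30 µM and 24.8% at 3 µM, against 6.45 to 10.2% in DMSO. Among the 17 cultures of run 4 the 300 µM value ranked 7 from the top, near the median of 37.9 CPM, so most other cultures of that run were also above its DMSO well. In run 1 the 300 µM cells were at 23.5 CPM, inside the DMSO range. MT2A, a metallothionein, was at 40.3 CPM against 11.1 to 50.3 CPM, and 3 of the 5 tested genes of the list lay within the range.

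The other stress lists showed no call either. Counting genes above and below every DMSO culture, heat shock had 1 and 2 of 18, the integrated stress response 1 and 4 of 18, endoplasmic reticulum chaperones 4 and 1 of 20, p53 targets 5 and 2 of 20, apoptosis 4 and 2 of 16, the proteasome 3 and 6 of 29 and hypoxia and glycolysis 2 and 3 of 19. At 3 µM heat shock had 7 and 3, the integrated stress response 12 and 0 and p53 targets 10 and 0. Endoplasmic reticulum chaperones had 6 and 1 there, apoptosis 4 and 1, the proteasome 2 and 5 and hypoxia and glycolysis 10 and 1. Of all tested genes 16% lay above and 28.3% below at 3 µM. HSPA5, the main chaperone of the endoplasmic reticulum, was at 313, 288, 378 and 313 CPM in DMSO and at 453 CPM at 300 µM, a log2 fold change of 0.49 (SE 0.24). DNAJB9, its co-chaperone, was at 68.6 CPM against 45.4 to 53.2 CPM. Autophagy and lysosome genes had 2 above and 3 below of 16, the PPAR and lipid droplet list 4 and 3 of 19, TGF-beta feedback and matrix 2 and 3 of 16, acute phase and chemokines 5 and 2 of 16, nuclear-retained RNAs 0 and 3 of 7 and mitochondrially encoded genes 0 and 1 of 13. PSAT1, a serine synthesis enzyme in the integrated stress response list, was at 11.3 CPM against 20.5 to 26.4 CPM. Of the aryl hydrocarbon receptor list 3 of 6 tested genes were above the range at 300 µM, 1 below and 2 within it, with a median log2 fold change of 0.30. At 30 µM 4 were above, where 17.8% of all tested genes were. CYP1A1, its best known target, was at 5.26, 2.05, 4.16 and 1.04 CPM in DMSO and 7.63 CPM at 300 µM, but 11 of its 25 UMIs there came from 1 cell. CYP1B1 was at 41.5 CPM against 23.3 to 35.4 CPM and AHRR, the receptor's repressor, at 72.6 CPM against 37.8 to 65.5 CPM.

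Immediate early genes, the first transcripts made after many stimuli, were on the high side. Of 15 tested, 6 lay above every DMSO culture and 0 below, with a median log2 fold change of 0.31, and 2 had an unadjusted p under 0.05. JUN was at 165, 183, 238 and 219 CPM in DMSO and at 255, 276 and 306 CPM with rising dose, so every treated culture lay above every control. FOSL2 was at 42.1 to 65.6 CPM in DMSO and at 92.2, 78.1 and 84.2 CPM with rising dose. In run 1 neither gene was above the range at 300 µM, with 115 and 29.9 CPM. Sterol and fatty acid synthesis had 4 of 20 genes above the range at 300 µM, 13 at 30 µM and 11 at 3 µM, with none below at any dose. Of all tested genes 17.8% lay above at 30 µM and 16% at 3 µM, against the same 4 controls. INSIG1, a sterol-regulated brake on that pathway, was at 391, 427 and 369 CPM with rising dose against 259 to 362 CPM. The histone list had 4 of 10 above, among them H2BC5 with 47.0 CPM against 24.7 to 33.5 CPM and H2AC6 with 106 CPM against 59.6 to 81.7 CPM. At 3 µM 5 of the 10 histone genes lay above and 1 below, and at 30 µM 0 above and 2 below. Of the 15 immediate early genes 7 lay above and 0 below at 3 µM, and 5 above and 1 below at 30 µM.

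**Figure D3:**
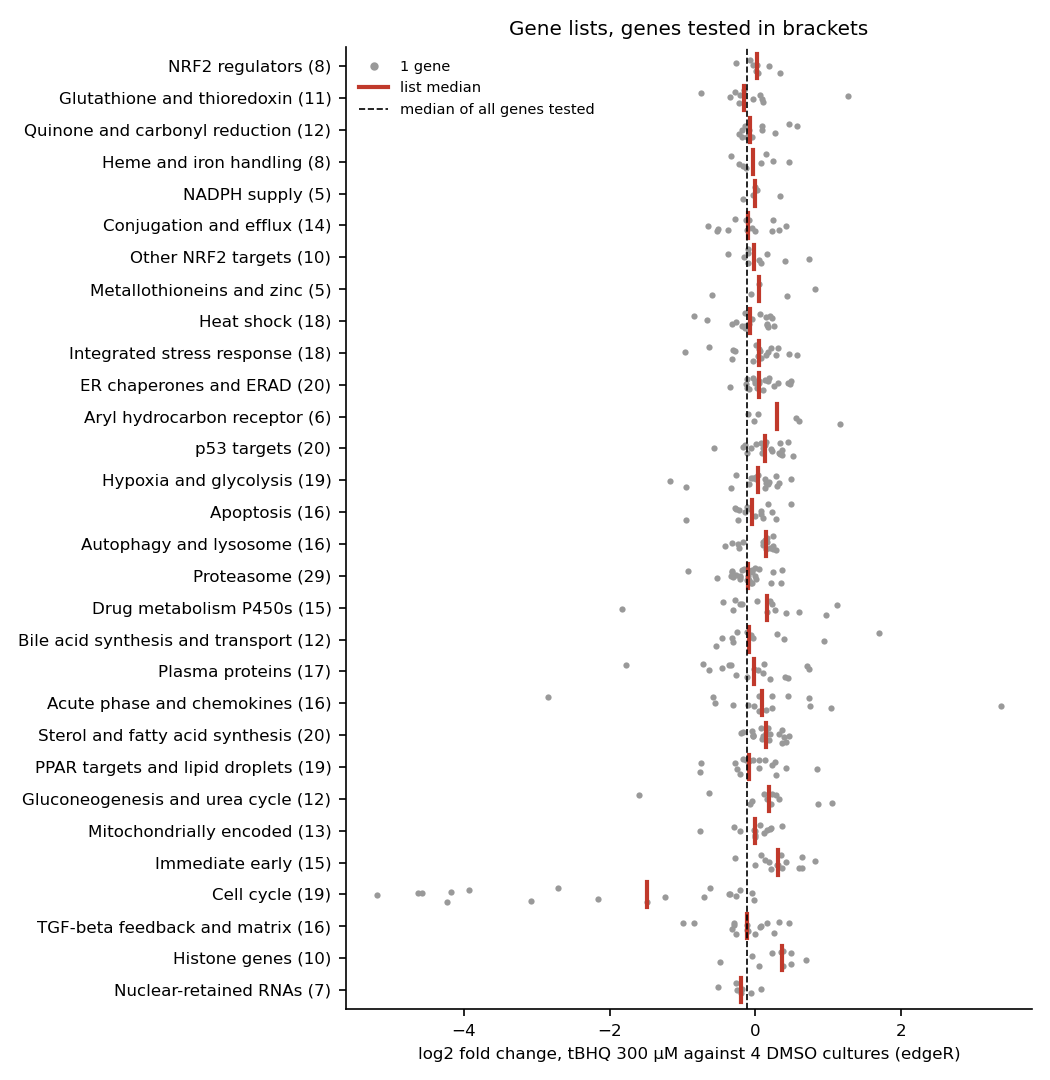
Each grey point is a tested gene at its edgeR log2 fold change for 300 µM against the 4 DMSO cultures, red bars are list medians and the dashed line is the median of all tested genes, −0.11. The NRF2 lists centre near 0, and the cell cycle list has its median at −1.49.

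The summed hepatocyte markers lay inside the control range. Of the 10 markers 2 lay above and 0 below every DMSO culture. Together the 10 summed to 15089 CPM at 300 µM against 10482 to 25583 CPM in DMSO. After thinning, ALB was found in 87.5% of cells (interval 75.9 to 94.8%), under the DMSO shares of 90.0 to 96.1%. At 3 µM ALB was found in 75.2% of cells and at 30 µM in 86.5%. APOB was found in 100% against 97.6 to 99.2% in DMSO, and HNF4A in 33.9% against 30.1 to 44.1%. The 10 cholangiocyte markers summed to 146 CPM against 133 to 218 CPM, with 4 of them above and 2 below every DMSO culture. KRT19, a cholangiocyte keratin, was at 66.9, 73.2, 116 and 96.1 CPM in DMSO and at 50.03 CPM at 300 µM, below every control, while KRT7 was at 2.14 CPM. The 6 endothelial markers summed to 72.6 CPM against 55.2 to 97.1 CPM, with CDH5 and CLEC4G at 0 in the 300 µM culture, CLEC4G at 0 in every DMSO and tBHQ culture and CDH5 also at 0 in DMSO run 4. Of the 6, 1 lay above and 2 below every DMSO culture. The 7 macrophage or leukocyte markers summed to 28.4 CPM against 14.4 to 36.3 CPM, with MARCO and LYZ at 0, and MARCO also at 0 in DMSO runs 4 and 6. Of the 7, 2 lay above and 2 below. PTPRC was found in 0 of 56 cells after thinning, which allows a share of up to 5.36% of cells with a UMI at 5000 UMIs each and sets no limit on cells expressing the gene.

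Plasma protein genes had 4 of 17 tested members above the range and 1 below. The fibrinogen chains FGA and FGG were at 1072 and 792 CPM, above the highest DMSO values of 805 and 736 CPM. AHSG, fetuin A, lay below with 2.44 CPM against 4.57 to 10.3 CPM. Of the 15 tested P450 genes 6 lay above and 4 below. CYP3A4 was at 77.5 CPM against 20.5 to 60.8 CPM, but 196 of its 254 UMIs came from 1 cell. CYP3A7, the fetal form, was at 6.10 CPM against 11.8 to 42.1 CPM. Bile acid synthesis and transport had 3 above and 3 below of 12, and gluconeogenesis and the urea cycle 2 above and 0 below of 12, with the glucose-6-phosphatase G6PC1 at 29.0 CPM against 12.03 to 18.6 CPM. Of the 95 G6PC1 UMIs at 300 µM 34 came from 1 cell.

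Since no gene passed the model, genes were also ranked by a plain rule: at least 2-fold above the highest or below the lowest of the 4 DMSO cultures, with at least 50 UMIs. It kept 8 of 8986 genes that could qualify as higher (0.089%) and 37 of 9126 as lower (0.405%). Of the genes that could qualify, 12.7% lay above and 30.6% below every DMSO culture by any amount. The values just inside and outside were 2.05 and 1.95 among the higher genes and 2.00 and 1.98 among the lower ones. The rule chose these genes by the 300 µM culture, so their distance from DMSO is a description. Values at the other doses and in run 1 are set against the same 4 controls and are no independent support.

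The 8 higher genes were 5 protein-coding genes and 3 long noncoding RNAs. ABCB11 (chr2:168915498-169031324), the bile salt export pump, was at 13.2, 32.8, 22.5 and 31.3 CPM in DMSO and at 38.7, 52.5 and 79.0 CPM at 3, 30 and 300 µM. Every tBHQ culture of run 4 lay above every control, as did the 300 µM cells of run 1 with 68.3 CPM. Values of run 1 come from 26 cells with 468614 UMIs over all genes, so they rest on few UMIs per gene. KMO (chr1:241532134-241595642), kynurenine 3-monooxygenase of tryptophan breakdown, was at 8.44, 10.2, 9.37 and 9.13 CPM in DMSO, at 10.4, 19.2 and 23.5 CPM with rising dose and at 27.7 CPM in run 1. At 300 µM 31 of the 77 KMO UMIs came from 1 cell and 133 of the 259 ABCB11 UMIs from another. Both genes followed the dose order, and DESeq2 called both in the dose trend (adjusted p = 0.0064 for each), while edgeR did not (adjusted p = 0.42 for each).

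C9, the terminal complement component, was at 7.49, 10.5, 8.17 and 12.04 CPM in DMSO and at 16.9, 3.02 and 35.7 CPM with rising dose, and at 32.0 CPM in run 1. XDH, xanthine oxidoreductase, was at 25.3, 25.2, 17.5 and 22.8 CPM in DMSO, at 23.1 and 20.4 CPM at the lower doses and at 53.4 CPM at 300 µM, against 23.5 CPM in run 1. LRRTM4, a synaptic adhesion protein, was at 72.3 CPM at 300 µM, at 1.79 and 1.13 CPM at the lower doses and at 0 in run 1.

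A few cells held much of this RNA. In each of the 8 genes 1 cell gave over 20% of the UMIs at 300 µM, and in 3 over 50%. In LRRTM4 232 of 237 UMIs were in 1 cell. In ABCB11 133 of 259 UMIs and in C9 63 of 117 UMIs came from the same cell, which held 98518 UMIs, and 13 and 17 of 56 cells held any UMI of these genes. When the cell richest in the gene was left out of every culture, 7 of the 8 still lay above every DMSO culture but 1 was still 2-fold above, the noncoding RNA ENSG00000285676. Without those cells ABCB11 was at 39.6 CPM against at most 27.2 CPM in DMSO, and LRRTM4 at 1.56 CPM. In 7 of the 8 genes the 300 µM culture was the highest of the 17 cultures of run 4. The genes were chosen for a high value at 300 µM, so a high rank is partly given by the rule. The share of all genes with that rank was not counted. Without the mitochondrial limit, with 69 more cells, ABCB11 was at 41.5 CPM and C9 at 19.3 CPM, while XDH was at 74.7 CPM, and XDH alone of the 8 still passed the rule. Among the genes called by DESeq2, CXCL10, an interferon-induced chemokine, had 24 of its 35 UMIs at 300 µM in 1 cell.

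**Figure D4:**
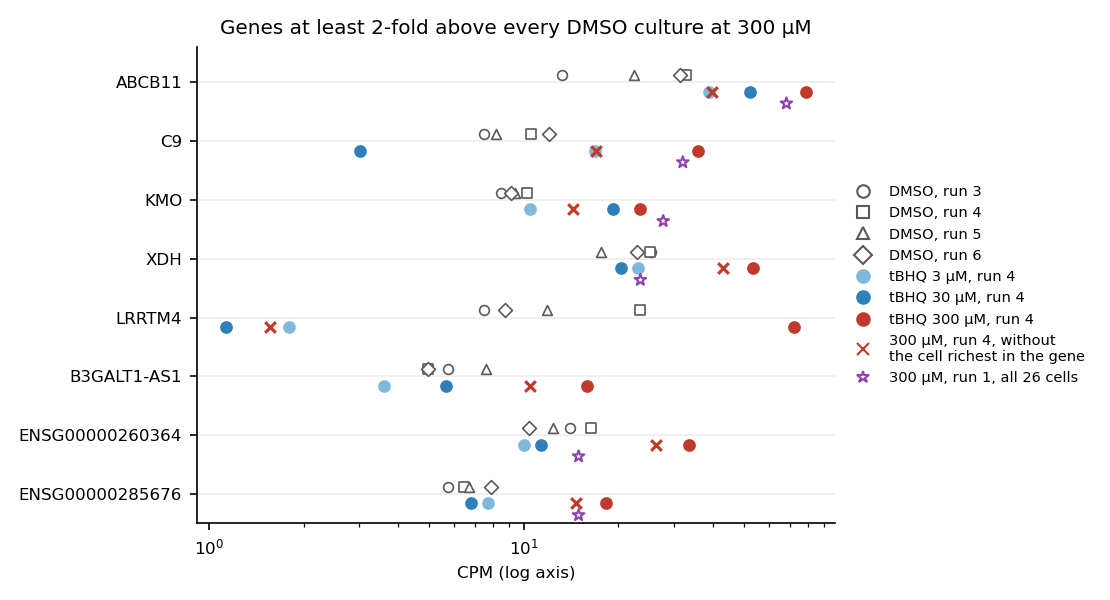
Each row is a gene at least 2-fold above every DMSO culture at 300 µM, on a log axis of CPM, with open symbols for DMSO, filled circles for tBHQ of run 4, crosses for 300 µM without the cell richest in the gene and stars for run 1 (none where run 1 had 0 UMIs). ABCB11 moves from 79.0 to 39.6 CPM and LRRTM4 from 72.3 to 1.56 CPM without that cell.

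Most proliferation genes lay below every control at 300 µM, none past the test. Of the 19 tested genes of the cell cycle list, 0 passed the test, 8 had an unadjusted p under 0.05, all lower, and 13 lay below every DMSO culture, against 28.6% of all tested genes. The median log2 fold change of the list was −1.49. Summed, the list was at 934, 255, 387 and 266 CPM in DMSO and at 674, 192 and 160 CPM at 3, 30 and 300 µM, so the 3 µM culture was inside the control range and both higher doses were below it. At 30 µM 13 genes of the list also lay below every DMSO culture, against 27.6% of tested genes, and at 3 µM 0 did, against 28.3%, with the same 4 controls at each dose. CCND1, the cyclin of early G1, was at 67.7 CPM against 60.6 to 77.4 CPM and did not share the pattern.

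MKI67 (chr10:128096659-128126423), the standard marker of cycling cells, was at 231, 31.3, 69.1 and 20.1 CPM in DMSO and at 139, 17.4 and 2.44 CPM with rising dose. The controls differed widely among themselves, with the run 3 culture the highest. The edgeR log2 fold change was −5.19 (SE 1.65, unadjusted p = 0.010, adjusted p = 1.00), and without the run 3 culture −4.07 (adjusted p = 0.22). After thinning, MKI67 was found in 0 of 56 cells at 300 µM, which allows a share of up to 5.36%, in 1.92% at 30 µM and in 15.2% at 3 µM, against 27.2%, 5.51%, 11.9% and 3.23% of DMSO cells in runs 3 to 6. The exact interval of the zero reached 6.375%, above the shares in the controls of runs 4 and 6. TOP2A, the topoisomerase of mitosis, was at 300, 33.95, 57.0 and 28.6 CPM in DMSO and at 144, 12.1 and 4.27 CPM. RRM2, a ribonucleotide reductase subunit, was at 37.0, 23.7, 21.1 and 5.40 CPM in DMSO and at 30.5, 3.77 and 0.915 CPM. In both genes the 30 and 300 µM cultures were below every control and the 3 µM culture was not.

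Of the 37 genes at least 2-fold below every DMSO culture, 22 were protein coding and 15 long noncoding RNAs. Members with known roles in division included CENPF, a kinetochore protein, with 3.05 CPM against 25.5 to 249 CPM, ANLN, which scaffolds the cleavage furrow, with 5.19 CPM against 17.0 to 168 CPM, and SGO2, which guards centromere cohesion, with 6.41 CPM against 13.5 to 71.4 CPM. FANCA, of the Fanconi anemia repair complex, was at 24.6, 14.9, 19.7 and 16.2 CPM in DMSO and at 16.04, 4.91 and 4.58 CPM with rising dose. These were picked out once their values were known.

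The cells above the mitochondrial limit differed here. With all 125 cells, MKI67 was at 16.6 CPM at 300 µM against 19.4 to 220 CPM in DMSO, and TOP2A at 15.3 CPM against 28.1 to 281 CPM, so both were still the lowest but by less. The 69 cells above the limit held MKI67 at 27.8 CPM, inside the DMSO range. In run 1, all cells together gave 29.9 CPM of MKI67 and 40.6 CPM of CENPF, also inside it. Without the limit 12 genes were 2-fold below every control in place of 37, and 9 of the 37 were among them. In summed UMIs, fewer cells of a type and less RNA per cell cannot be told apart. The part of the mitochondrial share in these values was not tested.

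Among the 37 were also 3 matrix genes of mesenchymal cells, picked out once their values were known. COL3A1 (chr2:188974373-189012746), a fibrillar collagen, was at 39.4, 36.6, 109 and 98.4 CPM in DMSO and at 57.2, 85.3 and 14.0 CPM at 3, 30 and 300 µM, with 11.7 CPM when all cells were counted. POSTN, periostin, was at 78.8, 50.9, 98.9 and 149 CPM in DMSO and at 47.4, 107 and 21.7 CPM. COL11A1 was at 27.2 to 36.9 CPM in DMSO and at 19.4, 18.1 and 12.8 CPM. In each gene the 300 µM culture was below every control, and in POSTN and COL3A1 the 30 µM culture was inside the control range. In cells thinned to equal depth the share with a COL3A1 UMI was 14.3% at 300 µM, inside the DMSO range of 8.66 to 18.3%, and that with POSTN 12.5% against 9.68 to 24.1%, so neither share was below the controls. The 9 stellate or fibroblast markers, COL3A1 among them, summed to 96.4 CPM against 122 to 242 CPM, with COL1A2 at 0 in every DMSO and tBHQ culture.

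A further 3 of the 37 were picked out because their controls were close together. UBE2O, a ubiquitin-conjugating enzyme, was at 30.1, 28.7, 28.9 and 29.3 CPM in DMSO and at 33.6, 24.2 and 14.3 CPM with rising dose, from 47 UMIs in 30 of 56 cells. C12orf75 was at 34.2 to 35.5 CPM in DMSO and at 33.4, 20.8 and 15.9 CPM. CNKSR2, a scaffold of RAS signalling, was at 48.2 to 60.0 CPM in DMSO and at 37.9, 40.8 and 22.9 CPM. Their log2 fold changes were −1.03 (SE 0.28), −1.14 (SE 0.27) and −1.18 (SE 0.27), with an adjusted p of 1.00 each in edgeR. In run 1 they were at 23.5, 23.5 and 34.1 CPM, below every control but nearer to them. Below every control in run 1 lay 20 of the 37 genes and 56.9% of all genes that could qualify as lower. Run 1 values rest on few UMIs per gene.

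**Figure D5:**
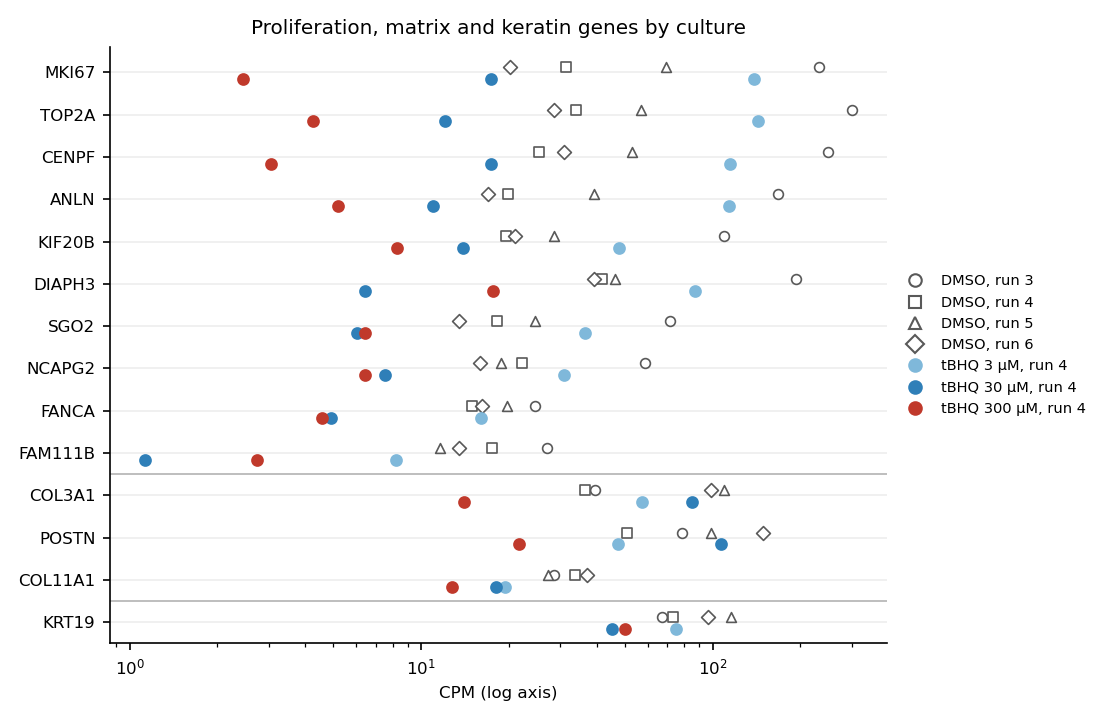
Each row is a gene on a log axis of CPM, with open symbols for the 4 DMSO cultures and filled circles for tBHQ of run 4, and lines separate division and repair genes, matrix genes and KRT19. In all 14 genes 300 µM lies below every DMSO culture, and in MKI67 it is at 2.44 CPM against 20.1 to 231 CPM.

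The dose trend across DMSO, 3, 30 and 300 µM also gave no call. It used the same DMSO and 300 µM cultures and is no independent support. Of 18303 genes tested, 0 passed in either direction in edgeR, with a lowest adjusted p of 0.19, and 239 (1.31%) were higher and 751 (4.1%) lower with dose at an unadjusted p of 0.05. DESeq2 called 2 genes higher with dose (0.0111%), ABCB11 and KMO, and 10 lower (0.0557%), among them the division and repair genes CENPK, FANCA and FAM111B and the long noncoding RNA XACT. FAM111B, a protease of replicating cells, was at 27.0, 17.6, 11.6 and 13.5 CPM in DMSO and at 8.23, 1.13 and 2.75 CPM. CENPK, a centromere protein, was at 28.9, 11.4, 11.1 and 9.75 CPM in DMSO and at 10.9, 1.13 and 1.53 CPM. XACT was at 41.4, 75.8, 44.6 and 35.1 CPM in DMSO and at 41.4, 13.2 and 7.32 CPM. In all 3 the largest ratio between neighbouring doses was that between 3 and 30 µM. AKR1C1, TXNRD1 and GCLC had slopes of −0.04, −0.02 and 0.03 on the log2 scale per dose step, each smaller than its SE of 0.07 to 0.08.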

How the data were processed

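Per the file headers and values, the authors deposited raw UMI counts per gene and cell, without normalization, beside tables of cells and genes. Reads had been processed with the Parse Biosciences pipeline, aligned to GRCh38 and collapsed by UMI. The pipeline's version is not given in the sources read here. Each cell's UMIs and genes matched the cell table for all 12976 cells. The sample name of each cell gave its culture. Filtered cells (500 or more genes, MT- UMIs of 20% or less) were pooled into 1 profile per culture, provided that it held at least 30 of them. The lowest depth among the DMSO and tBHQ cultures compared was 2650359 UMIs. No doublets were removed. Coordinates and gene types come from GENCODE v44, which matched 62625 of 62703 gene identifiers, and gene levels are not adjusted for length, so they are compared within a gene only.

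Counts were tested with edgeR 4.0.16 (quasi-likelihood, filterByExpr, total-count scaling, adjusted p 0.05) in R 4.3.3, and with DESeq2 1.42.0 as an alternative. Intervals of fold changes are 95% and intervals of shares are exact binomial (Clopper-Pearson), computed with scipy 1.17.1. A count of 0 was read as allowing up to 3 counts. Other alternatives were TMM and DESeq2 size factors, no MT- genes, no gene filter, no MT- limit, each control left out, all cultures in 1 fit, means over cells and other thinning depths. The scripts were tested on simulated data. Named were the genes the study names for tBHQ, the genes that define the NRF2 response and, had any passed the test, the 12 largest rises and falls and up to 4 members of each list. All others were named after their values were seen. The culture, gene lists and rules were chosen with earlier results of these data known. The TempO-LINC data of the study were not used here. The values of 1 gene of these lists are not reported here.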

Additional observations from a re-analysis of the deposited data

Results flagged for a closer look

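Of 115 sets of DMSO values checked (genes and measures of library quality), 18 had 1 of the 4 cultures far from the others by Dixon's 95% criterion, all of them genes. Chance flags about 5% of such sets, and these genes are not independent of each other.

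For 8 genes of cell division the run 3 culture stood out as the highest, with 27.64 CPM for CDK1, 299.8 CPM for TOP2A, 168.3 CPM for ANLN, 248.8 CPM for CENPF, 109.5 CPM for KIF20B, 192.9 CPM for DIAPH3, 58.63 CPM for NCAPG2 and 28.92 CPM for CENPK. AKR1C1 was also highest in run 3, with 432.3 CPM. The run 4 culture, the one low in mitochondrial UMIs, was the highest for 5 genes at least 2-fold lower at 300 µM, with 59.99 CPM for CNKSR2, 48.58 CPM for DLGAP1, 80.76 CPM for ENSG00000258117, 113.5 CPM for LINC01029 and 27.21 CPM for ENSG00000288098. It was the lowest for MT2A, with 11.12 CPM. G6PC1 stood out as highest in run 5 with 18.59 CPM, PSAT1 as highest in run 6 with 26.35 CPM and H2AC6 as lowest in run 6 with 59.55 CPM.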

How the results depend on the processing

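In edgeR the comparison of 300 µM with DMSO stayed at 0 higher and 0 lower genes with TMM or DESeq2 size factors, without MT- genes, without the mitochondrial limit, with any 1 control left out and with the run 1 culture added as a second treated culture, an alternative chosen after seeing the data. DESeq2 gave 4 higher and 1 lower, and 1 fit over all cultures of runs 3 to 6 gave 1 higher, CXCL10 (adjusted p = 0.0428 in edgeR), and 0 lower. With no filter on low counts edgeR called 28 of 38266 genes higher and 114 lower for 300 µM. For the dose trend it called 15 of 38976 genes higher and 119 lower. Of 111 followed genes 44 were past the threshold for 300 µM, among them MKI67, CYP3A4 and CYP3A7. The followed genes include those kept by the fold rule on the same 300 µM values, so their share is high by choice. The cause of the added calls was not tested. For the trend DESeq2 gave 2 higher and 10 lower, and leaving out 1 control gave 0 to 1 lower, the 1 being ENSG00000265643 without the run 6 culture (adjusted p = 0.0476 in edgeR).

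The plain fold rule kept 1 higher and 10 lower genes at 3-fold, 10 higher and 30 lower with TMM factors, and 8 higher and 12 lower without the mitochondrial limit, of which 1 and 9 were among the main ones. With 1 control left out, chosen after seeing the data, it gave 9 to 24 higher and 41 to 57 lower: 14 higher and 56 lower without run 4, 24 higher without run 5 and 57 lower without run 6. Of 111 genes recomputed under each setting that allowed it, TMM scaling turned the sign of 3 fold changes (AKR1C2, UGT1A6 and CCND1), and the run 4 control used alone that of 11, among them AKR1C1 to AKR1C3, GCLM and TXNRD1. Without the mitochondrial limit 3 signs turned (SPANXB1, HMOX1 and SLC48A1), and with the mean over cells 5. With MT- genes left out 4 turned (AKR1C1, AKR1C2, UGT1A6 and CCND1). The shares of AKR1C1-high and TXNRD1-high cells were 10.7 to 19.6% and 5.36 to 8.93% at the other thinning depths and with the mean over all controls.

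No paired analysis was possible because only run 4 held both DMSO and tBHQ cultures with at least 30 kept cells, and there each dose had 1 culture (run 1 kept 2 DMSO cells and 4 at 300 µM). A stricter filter (at most 10% MT- UMIs and at least 1000 genes) was not run, since 0 cells of the 300 µM culture passed it. Precision is limited by 56 cells and by 1 treated well, and well and dose cannot be told apart.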
